A study of Mus musculus with 8 samples.

Results

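The clustered histone genes of the mouse were followed through 8 RNA-seq libraries of skeletal myogenic cells. They were taken as every gene symbol in the count table that starts with Hist1h, Hist2h, Hist3h or Hist4h, which gave 69 of the 24980 symbols, with 6 H1, 19 H2A, 19 H2B, 12 H3 and 13 H4 genes. By the number in the symbol, 55 belonged to the Hist1 cluster on chromosome 13, 10 to Hist2 on chromosome 3, 3 to Hist3 on chromosome 11 and 1 to Hist4 on chromosome 6. GENCODE M21 (build GRCm38) lists all 69, of which 67 are protein-coding and the other two, Hist1h2al and Hist3h2bb-ps, are processed pseudogenes.

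TF cells were skeletal myogenic progenitors sorted fresh from teratomas that EGFP-labelled mouse embryonic stem cells of the E14 line had formed in irradiated and cardiotoxin-injured tibialis anterior muscle of immunodeficient, dystrophin-lacking NSG-mdx4Cv mice. The sort took EGFP+ cells that were negative for CD31 and CD45 and positive for α7-integrin and VCAM-1. TE cells were such progenitors after culture to passage 8 on gelatin in expansion medium. SF cells were freshly isolated adult satellite cells, the resident stem cells of skeletal muscle, and SE cells were their counterparts after culture under those conditions to that passage. Each group had 2 libraries, described as biological replicates, and the study set them side by side to look for factors linked to engraftment. TF and TE came from 1 stem cell line, and the strains of that line and of the satellite cell donors are not given in the sources used here, so origin and genetic background cannot be told apart.

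Histones are the proteins around which DNA is wound: H2A, H2B, H3 and H4 form the core of the nucleosome, and H1 binds the linker DNA between nucleosomes. The clustered genes are expressed mainly in S phase, when newly copied DNA has to be packaged, and adult satellite cells are mostly quiescent in resting muscle. Their mRNAs usually end in a conserved stem-loop, bound by SLBP, in place of a poly(A) tail. Outside the clusters lie single genes for variants classed as replication-independent. Some of these, such as H3f3a and H2afz, have polyadenylated mRNAs that are not confined to S phase. These libraries were made from total RNA without poly(A) selection, so transcripts of both kinds could enter them.

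The stem-loops are shown because they are the feature by which the clustered genes' mRNAs differ from most others. A search of the GENCODE M21 transcripts after each stop codon used a fixed pattern of 6 stem bases on either side of a 4-base loop. It asked for GG, pyrimidines (C or T) and T, a loop of T, pyrimidine, T and any base, then A, purines (A or G) and CC. The pattern thus set part of the stem letters in advance, and pairing was not tested. A match was found in 46 of the 69 genes. Some models without a match were short, such as those of Hist1h2bn (381 bases), Hist1h3h (411 bases) and Hist1h4k (312 bases). Where a model ends at or near its stop codon, hardly any sequence was left to search. Such genes may still have a stem-loop. Among the matches, the stem had the same letters in 4 H1, 11 H2A, 10 H2B and 9 H3 genes, while the H4 genes had 1 of 2 other stems, in 10 and 2 genes. In the examples below (GRCm38, 5′ to 3′), capitals mark the stem and lower case the loop.
Hist1h1c, chr13:23739512-23739527, plus strand: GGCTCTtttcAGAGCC
Hist2h2ac, chr3:96220418-96220433, minus strand: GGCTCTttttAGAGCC
Hist1h4d, chr13:23581950-23581965, plus strand: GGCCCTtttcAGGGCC
Hist1h4b, chr13:23757366-23757381, plus strand: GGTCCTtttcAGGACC
Hist4h4, chr6:136803998-136804013, minus strand: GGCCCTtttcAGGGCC
The GENCODE model of Hist4h4 ran on for 2445 bases beyond its stem-loop and that of Hist2h3c1 for 1167, whereas those of Hist1h2bm and Hist1h2bj ended 46 and 23 bases beyond theirs. Counts of such long models can hold reads from RNA that was not cut at the stem-loop, and how many did was not tested.

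RefSeq promoters (GRCm38.p6, 250 bases before to 50 after the annotated start) were at hand for 61 of the 69 genes. The search of both strands covered 4 motifs: the TATA box in the spelling TATAAA, the pentamer known as the CCAAT box, the octamer of H2B promoters, ATTTGCAT, and the H1 box in the form AAACACA. The pentamer was present in all 6 H1, 17 H2A, 16 H2B and 10 H3 promoters but in 3 of 12 H4 promoters, against 37.9% of all 27025 RefSeq promoters. TATAAA was present in 35 of the 61 (57.4%), against 14.2% of all. The octamer was found in 7 H2A and 6 H2B promoters and in no H1, H3 or H4 promoter, against 1.75% of all. The H1 box was found in 5 of 6 H1 promoters, against 7.14% of all. The promoters below belong to genes whose levels are described in the comparisons that follow, with motif matches in capitals (a motif on the other strand appears reversed and complemented).
Hist1h1b, chr13:21780576-21780875, minus strand: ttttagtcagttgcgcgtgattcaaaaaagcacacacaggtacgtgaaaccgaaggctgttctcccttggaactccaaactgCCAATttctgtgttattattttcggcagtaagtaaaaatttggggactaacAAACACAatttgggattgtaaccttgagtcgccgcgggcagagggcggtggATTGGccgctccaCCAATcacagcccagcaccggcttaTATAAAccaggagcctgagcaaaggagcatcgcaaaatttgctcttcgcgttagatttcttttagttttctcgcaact
Hist1h2bn, chr13:21753826-21754125, plus strand: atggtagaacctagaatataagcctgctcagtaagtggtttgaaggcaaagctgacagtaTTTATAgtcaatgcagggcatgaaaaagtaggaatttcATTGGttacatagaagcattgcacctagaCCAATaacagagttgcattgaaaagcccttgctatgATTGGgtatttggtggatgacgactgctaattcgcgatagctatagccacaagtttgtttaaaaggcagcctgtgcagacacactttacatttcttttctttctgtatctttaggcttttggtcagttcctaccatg
Hist2h2ac, chr3:96220831-96221130, minus strand: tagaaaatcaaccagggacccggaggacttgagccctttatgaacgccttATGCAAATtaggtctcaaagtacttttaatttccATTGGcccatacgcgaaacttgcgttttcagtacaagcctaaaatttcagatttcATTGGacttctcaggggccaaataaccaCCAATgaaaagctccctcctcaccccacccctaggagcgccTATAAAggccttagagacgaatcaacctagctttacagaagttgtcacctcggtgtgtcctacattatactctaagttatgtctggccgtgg
Hist1h3b, chr13:23752095-23752394, plus strand: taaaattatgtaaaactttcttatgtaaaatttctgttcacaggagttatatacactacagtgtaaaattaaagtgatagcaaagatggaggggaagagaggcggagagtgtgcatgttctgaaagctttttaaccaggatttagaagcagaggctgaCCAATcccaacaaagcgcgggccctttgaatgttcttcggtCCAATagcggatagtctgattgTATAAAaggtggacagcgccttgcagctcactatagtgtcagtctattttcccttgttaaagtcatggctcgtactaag
Hist4h4, chr6:136804382-136804681, minus strand: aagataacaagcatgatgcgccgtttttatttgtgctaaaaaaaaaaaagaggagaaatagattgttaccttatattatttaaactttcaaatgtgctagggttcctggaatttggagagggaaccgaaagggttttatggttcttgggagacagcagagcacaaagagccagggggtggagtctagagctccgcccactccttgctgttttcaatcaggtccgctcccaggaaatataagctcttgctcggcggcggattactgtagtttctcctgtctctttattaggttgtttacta
In Hist1h1b, which encodes a linker histone, the H1 box lay upstream of the TATA box. The Hist4h4 window held none of the 4 motifs. The Hist1h2bn window is also most of the promoter of Hist1h2ak, which starts 296 bases away in GENCODE and runs the opposite way. Such divergent pairs of 1 H2A and 1 H2B gene, with starts under 500 bases apart, numbered 13, and their starts were 173 to 306 bases apart.

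**Figure D1:**
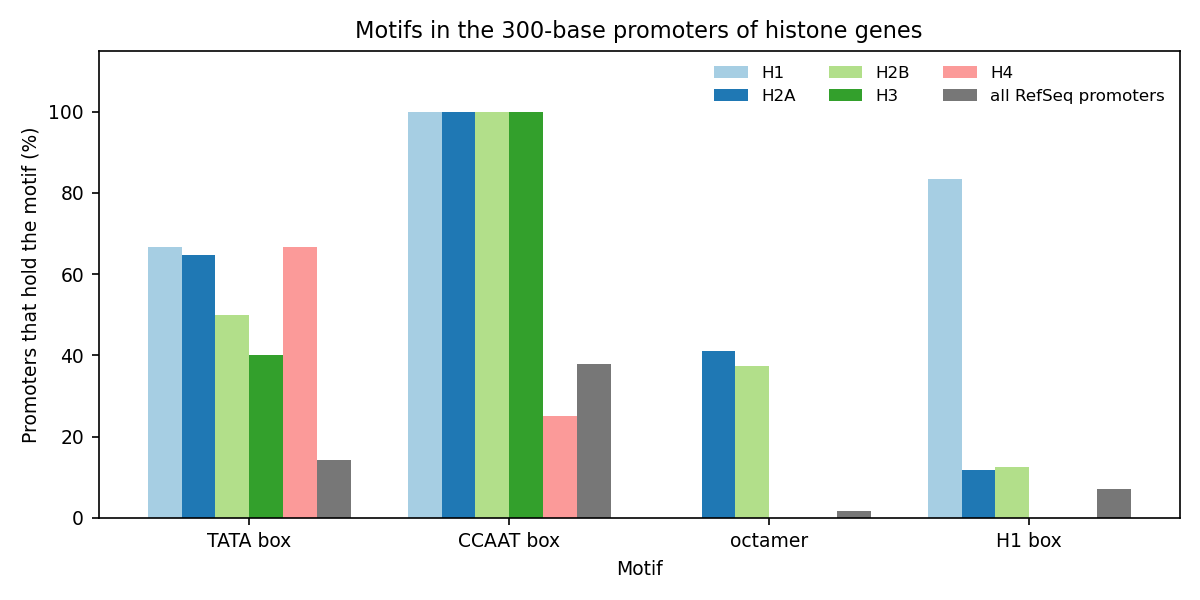
Bars give the percent of 300-base RefSeq promoters that hold each motif (x axis) on either strand, for each histone class and, in grey, for all 27025 promoters. The CCAAT bars stand at 100% in the H1, H2A, H2B and H3 classes and at 25% in H4, and the octamer appears in H2A and H2B alone among the classes.

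The libraries held 11930881 to 21146554 estimated counts. The precursor ribosomal RNA Rn45s took 7.99 to 21.2% of the counts. At 1 or more counts, 63 to 66 clustered histone genes were detected in the TF, TE and SE libraries and 53 and 47 in the SF libraries, and 63 of the 69 passed the filter on low counts. Levels below are CPM, the count of a gene in 1000000 counts of its library after TMM scaling, and fold changes are log2 values. After a fold change, ± gives an approximate standard error. It was worked back from edgeR's quasi-likelihood test, as the absolute log2 fold change over the square root of the F value. A gene was called when its adjusted p in edgeR's quasi-likelihood test was below 0.05 and the higher group exceeded the lower by over 25%. Beside the histone genes, markers of other cell types also differed between the groups: summed endothelial markers (6 genes) were at 236 and 69.6 CPM in TF and 273.5 and 355 CPM in SF but at 0.467 to 2.22 CPM in TE and SE, and summed fibro-adipogenic markers (5 genes) were at 829 to 1621 CPM in the fresh libraries and 2.39 to 7.45 CPM in the cultured ones. Summed haematopoietic markers (7 genes) were at 272 and 33.7 CPM in TF, 43.3 and 35.7 CPM in SF and 5.14 to 16.6 CPM in the cultured libraries. Summed myogenic markers (7 genes, such as Pax7 and Myod1) were high in all 8 libraries, at 1303 to 3335 CPM, but single members differed. Pax7 was at 198.6 to 318.6 CPM in the fresh libraries and 78.21 to 114.9 CPM in the cultured ones, and Myf5 and Vcam1 were also lower in culture. Itga7 and Des were higher in the cultured than in the fresh libraries. Myod1 was at 41.29 and 60.31 CPM in TF, 325 and 324.4 CPM in TE, 386.1 and 521.6 CPM in SF and 692.2 and 712.9 CPM in SE. Cdh15 was likewise higher in TE than TF and in SE than SF. Summed terminal muscle differentiation genes (8 genes) were at 123 and 96.2 CPM in SF and 898.5 and 496 CPM in TF. In culture they were at 6752 and 7094 CPM in TE and 8298 and 17927 CPM in SE. The part of these other cells and of muscle differentiation in the histone results was not tested. The SE replicates stood apart from each other: SE replicate 1 exceeded SE replicate 2 in 60 of the 63 tested histone genes, by a median ratio of 1.82.

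The sum over all 69 clustered histone genes was 278 and 291 CPM in SF, 2212 and 2609 CPM in TF, 2820 and 2781 CPM in TE, and 5183 and 3074 CPM in SE. The 2 SF libraries thus lay far below the other 6, and SE replicate 1 stood well above all the others. As a share of all counts, histone genes made up 0.0257 to 0.0274% in SF, 0.221 to 0.292% in the teratoma-derived libraries and 0.316 to 0.520% in SE. The group means were 285 ± 9.13 in SF, 2411 ± 280 in TF, 2801 ± 27.5 in TE and 4129 ± 1491 CPM in SE (SD, n = 2 each). SE stood 14.5-fold above SF, TF 8.46-fold above SF and TE 1.16-fold above TF, and TE was at 0.678 of SE. Without SE replicate 1 the log2 ratio of TE to SE was -0.13. In bulk RNA, fewer cells that express a gene and less of its RNA in each cell cannot be told apart.

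**Figure D2:**
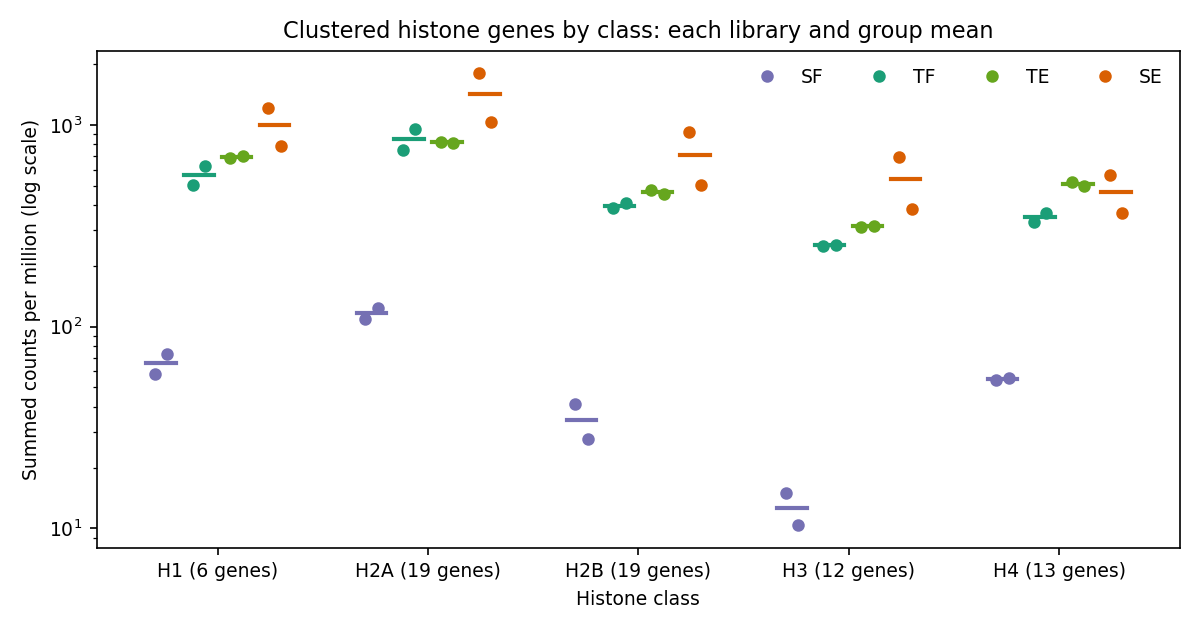
Each point is the summed level of a histone class in 1 library (CPM, log axis), with a horizontal line at the mean of the 2 libraries of a group. In every class both SF points lie below all other points. The H3 sum shows the widest gap, at 14.9 and 10.4 CPM in SF against 250.3 to 690.3 CPM elsewhere.

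The classes did not hold the same share of histone counts in every group. H3 genes supplied 5.35 and 3.56% of histone counts in SF against 9.76 to 13.3% in the other 6 libraries. H2A genes supplied 39.3 and 42.6% in SF against 29.2 to 36.5% elsewhere. The pseudogene Hist1h2al alone held 30.6 and 6.72% of the H2A counts in SF, against at most 5.37% elsewhere. The H2A share of SF replicate 1 thus rests in part on that pseudogene, and the class share without it was not computed. H4 genes were at 10.9 and 11.9% in SE, below the 14.1 to 19.6% of the other 6 libraries. Genes of the Hist2 cluster held 28.4 and 37.9% in SF and 16.1 to 22.2% elsewhere, and most of the SF share came from Hist2h2aa1, an H2A gene at 53.9 and 84.8 CPM in SF. These shares are of counts and are not per length, so they compare a class with itself across libraries.

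Almost the whole family was higher in cultured than in fresh satellite cells. In SE against SF, 57 of the 63 tested histone genes rose (20.9% of all 17582 tested genes did) and 1 fell (19.8% of all tested genes did). The median log2 fold change was 5.17 over the histone genes and -0.23 over all tested genes, and median-ratio scaling lowered the median of all genes by 0.19 without changing either count. For 59 of the 63, both SE libraries lay above both SF libraries, which was so for 33.9% of all tested genes. By class, 5 of 5 H1, 16 of 17 H2A, 14 of 17 H2B, 10 of 11 H3 and 12 of 13 H4 genes rose, with median log2 fold changes of 4.39, 6.81, 4.80, 5.37 and 3.75. Of the 58 calls, 57 held in each of the 8 fits without 1 library, and Hist1h4m, seen afterwards, lost its call without SE replicate 1 (adjusted p = 0.087). The size was less steady than the call, and in 31 of the 58 it moved by over 1.5 times when some library was left out.

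Among the linker histones, Hist1h1c was at 20.2 and 26.5 CPM in SF and at 341 and 294 CPM in SE, or 3.76 ± 0.23 on the log2 scale (adjusted p = 4.63e-06). Hist1h1e, also abundant, went from 32.6 and 34.2 CPM to 260.2 and 184 CPM, a log2 fold change of 2.73 ± 0.22. Hist1h1b was at 0.363 and 0.202 CPM in SF, 195 and 92.5 CPM in SE, and its log2 fold change was 8.97 ± 0.54 (adjusted p = 4.41e-06), or 8.35 without SE replicate 1. Hist1h1d was at 2.83 and 4.31 CPM in SF and at 282 and 155 CPM in SE, with a log2 fold change of 5.93 ± 0.38. Hist1h1a rose by 4.39 ± 0.55. All 5 tested linker histones were thus higher in both SE libraries than in either SF library, and those with the higher levels in SF, Hist1h1c and Hist1h1e, rose by the smaller folds.

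Among the H2A genes, Hist2h2aa1 had the highest level in every library and went from 53.9 and 84.8 CPM in SF to 533 and 355 CPM in SE, a log2 fold change of 2.68 ± 0.29. All of its 31-base words also occur in another annotated transcript, so the estimate may be shared with its copies. Hist1h2ai was at 2.18 and 0.269 CPM in SF and 183 and 87.9 CPM in SE, with a log2 fold change of 6.81 ± 0.67, which was 8.94 without SF replicate 1 and 5.97 without SF replicate 2. Hist1h2ap rose by 5.49 ± 0.40, Hist1h2ak by 5.93 ± 0.35 and Hist1h2ac by 8.13 ± 0.36 on the log2 scale. These are canonical H2A genes of the Hist1 cluster, and all moved far beyond the replicate spread.

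The one gene that fell was Hist1h2al. It was at 33.5 and 8.35 CPM in SF and at 1.89 and 0.400 CPM in SE, a log2 fold change of -4.15 ± 0.75 (adjusted p = 0.00188), with -2.83 without SF replicate 1 and -5.65 without SE replicate 1. Hist1h2al is a processed pseudogene at chr13:51202727-51203065 on the minus strand, away from the Hist1 cluster, and 18.1% of its 31-base words occur in no other gene, while 79.9% are shared with the annotated gene Gm20632. Which transcripts gave its counts was not tested.

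Among the H2B genes, Hist2h2bb went from 6.03 and 3.23 CPM in SF to 171 and 91.5 CPM in SE (log2 fold change 4.83 ± 0.38), and Hist1h2bc from 17.7 and 10.7 CPM to 93.5 and 82.9 CPM (2.63 ± 0.27). All 31-base words of Hist2h2bb also occur in the annotated gene Gm20628, so its estimate may be shared. Hist1h2bq and Hist1h2br carried identical estimates in all 8 libraries, at 3.85 and 1.55 CPM in SF and 70.6 and 42.3 CPM in SE. Of the 31-base words of Hist1h2bq, 98.3% occur in Hist1h2br, so the pair amounts to 1 measurement. The numbers of genes and the class sums given here nevertheless include both. Hist1h2bk had no count in either SF library and stood at 48.4 and 23.2 CPM in SE, at least 170.5-fold higher when SF is set to 3 counts per library. Hist2h2be, Hist1h2bp and Hist3h2ba were not called and had the lowest counts of the tested genes, Hist2h2be with 3.78 and 0.673 CPM in SF and 1.65 and 1.83 CPM in SE.

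Among the core H3 genes, Hist2h3c2 went from 2.91 and 1.14 CPM in SF to 145.5 and 91.9 CPM in SE (log2 fold change 5.88 ± 0.44, or 6.69 without SF replicate 1), and Hist2h3b from 1.89 and 1.62 CPM to 60.6 and 40.3 CPM (4.84 ± 0.32). Hist1h3d rose by 6.62 ± 0.45. Hist1h3b had 2 counts over both SF libraries and 3348 over both SE libraries, a ratio of 1238 with an exact 95% counting interval of 342 to 10230. All 11 tested H3 genes lay below 3 CPM in both SF libraries.

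Among the H4 genes, Hist1h4d was the most abundant and went from 20.4 and 23.9 CPM in SF to 162 and 84.4 CPM in SE (log2 fold change 2.48 ± 0.29). Hist1h4h rose from 4.80 and 5.05 CPM to 66.2 and 66.03 CPM (3.75 ± 0.31), and Hist1h4a from 5.96 and 5.52 CPM to 29.6 and 17.2 CPM (2.03 ± 0.39). The smallest called rise of the family was that of Hist1h4c, from 9.88 and 10.1 CPM to 50.6 and 27.1 CPM (1.96 ± 0.36, adjusted p = 0.00212). Hist1h4f had no SF count and was at 33.2 and 21.8 CPM in SE, at least 131-fold higher. Hist1h4b had 2 counts over both SF libraries and 785 over both SE libraries, a ratio of 290.2 with an exact counting interval of 80.1 to 2401. The H4 class thus held the smallest called rises of the family (Hist1h4c, Hist4h4 and Hist1h4a) as well as genes with at most 1 count in each SF library.

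In all, 12 histone genes had no count in either SF library, 7 of them among the tested genes, and their fitted fold changes depend on the prior count. With these set at their bounds the family median stayed at 5.17, while the H2A median moved from 6.81 to 6.07. Beside Hist1h2bk and Hist1h4f, they were Hist1h2ae, Hist1h3g, Hist1h2ah, Hist1h2bh and Hist1h2ad, chosen after their values were seen, whose SE levels were at least 157-, 149-, 104-, 83.2- and 67.0-fold above the SF floor. Counting intervals and floors cover counting error only.

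**Figure D3:**
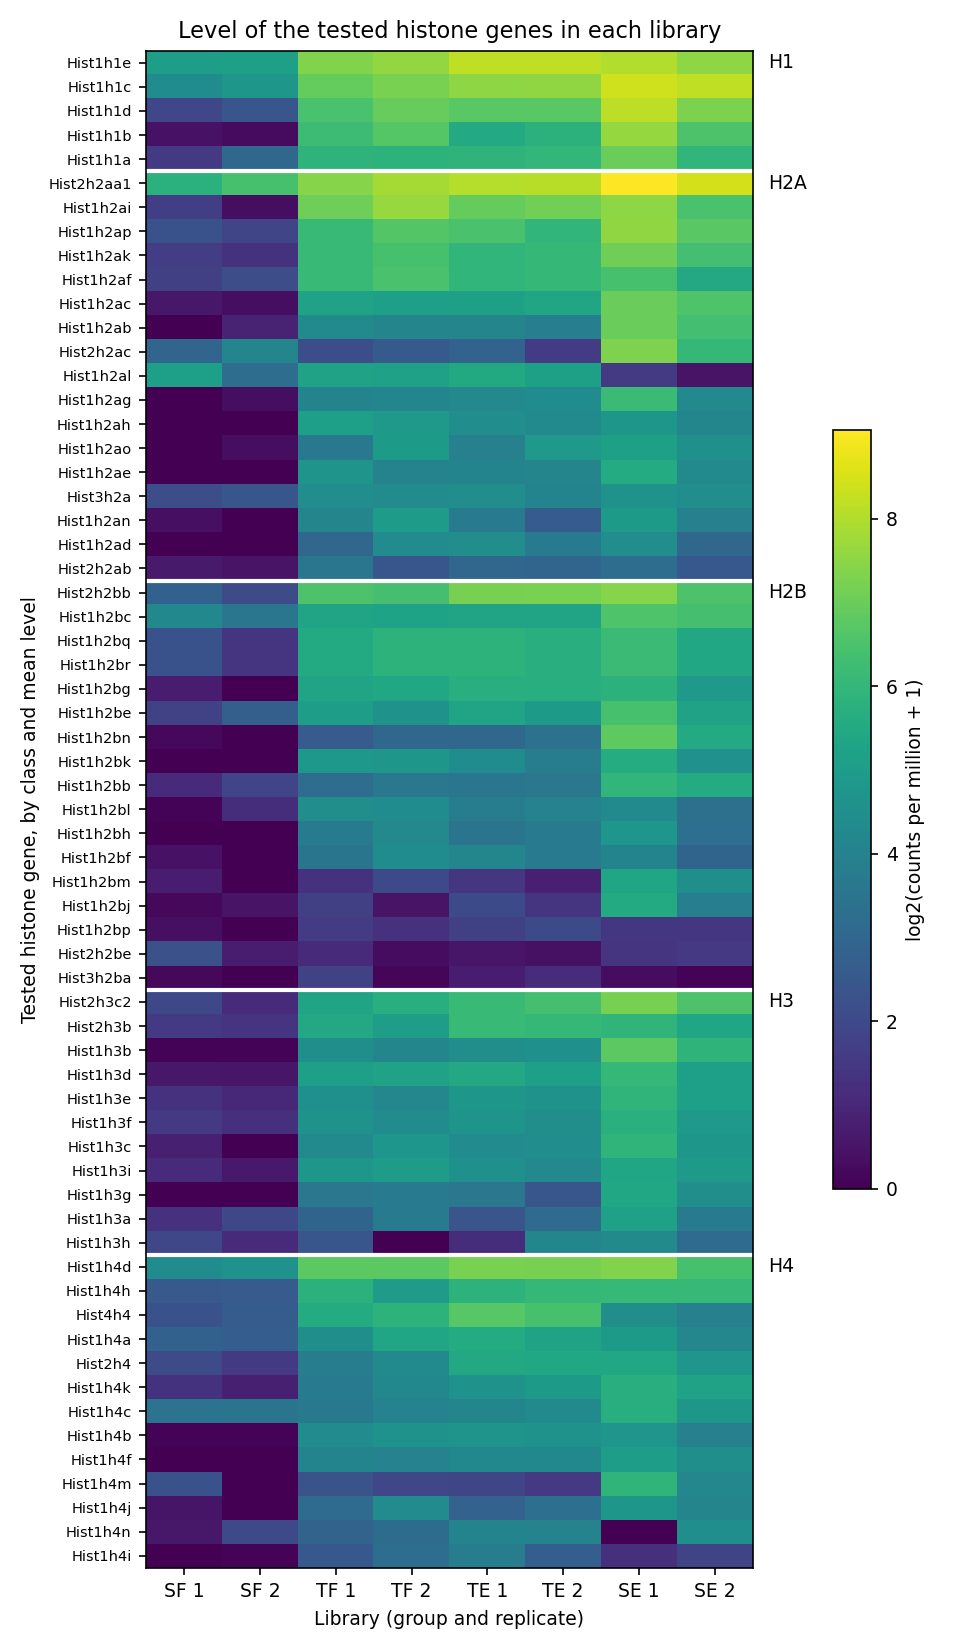
Each row is 1 of the 63 tested histone genes, grouped by class and ordered by mean level, and each column a library; colour gives log2(CPM + 1). The first 2 columns (SF) are dark for most rows, and Hist1h2al is the row that is bright in SF, TF and TE but dark in SE.

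Fresh teratoma-derived progenitors already held high histone levels. In TF against SF, 52 of the 63 histone genes were higher (15.1% of all tested genes) and 0 were lower (9.13% of all tested genes), with a median log2 difference of 4.26 over the histone genes and 0.08 over all tested genes. Beside the 0 lower, 1 gene had an unadjusted p below 0.05 in edgeR, and 1 was lower in DESeq2. Both TF libraries lay above both SF libraries for 57 of the 63 (35.5% of all tested genes). Median-ratio scaling lowered the median of all genes in this comparison by 0.16 and left 51 histone genes higher. Of the 52 calls, 51 held in each fit without 1 library, and Hist1h3a, seen afterwards, lost its call without SF replicate 1 or TF replicate 2 (adjusted p up to 0.19). In 21 of the 52 the size moved by over 1.5 times when some library was left out. The TF and SE comparisons share the SF libraries, so their lists are not independent.

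Hist1h1b stood at 73.3 and 101 CPM in TF against 0.363 and 0.202 CPM in SF (8.24 ± 0.53). The smallest called difference was that of Hist1h2bc, at 38.2 and 37.2 CPM in TF against 17.7 and 10.7 CPM in SF (1.41 ± 0.26). Hist1h2ah, with no SF count, was at 34.1 and 29.1 CPM in TF, at least 150.4-fold higher. Hist1h4c was at 11.8 and 15.3 CPM in TF against 9.88 and 10.1 CPM in SF and was not called (0.44 ± 0.35, adjusted p = 0.412). By class, 5 of 5 H1, 15 of 17 H2A, 12 of 17 H2B, 10 of 11 H3 and 10 of 13 H4 genes were higher. Hist1h2al, at 36.2 and 35.3 CPM in TF, lay just above SF replicate 1 and was not called (0.77 ± 0.63).

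Culture of the teratoma-derived progenitors changed few histone genes. In TE against TF, 4 of the 63 rose (9.86% of all tested genes did) and 0 fell (16.2% of all tested genes did), and the median log2 fold change was 0.08, against -0.18 over all tested genes. Beside the 0 that fell, 1 gene had an unadjusted p below 0.05 in edgeR and 0 were lower in DESeq2. The share of genes that rose lay below the background share. The 4 were Hist2h4 from 13.4 and 19.3 CPM in TF to 43.6 and 42.7 CPM in TE (log2 fold change 1.40 ± 0.36, adjusted p = 0.0179), Hist4h4 (0.88 ± 0.27, adjusted p = 0.0358), Hist2h3b (0.81 ± 0.26, adjusted p = 0.0471) and Hist1h1e (0.71 ± 0.21, adjusted p = 0.0312). Hist1h1e was at 160 and 194 CPM in TF and 293 and 289 CPM in TE, and Hist2h3b at 43.5 and 32.5 CPM against 67.9 and 65.1 CPM, so that in these genes the groups did not overlap. None of the 4 calls held in all 8 fits that left out 1 library: without TE replicate 1, TE replicate 2 or TF replicate 1 none of the 4 was called, and without TF replicate 2 only Hist2h4 was, with adjusted p-values of up to 0.247. Hist2h3b, whose 31-base words all occur in other transcripts, was also not called with median-ratio scaling or in DESeq2. Hist2h4, Hist4h4 and Hist2h3b lie outside the Hist1 cluster, and of the 13 H4 genes 11 had a positive fold change, with a class median of 0.46.

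**Figure D4:**
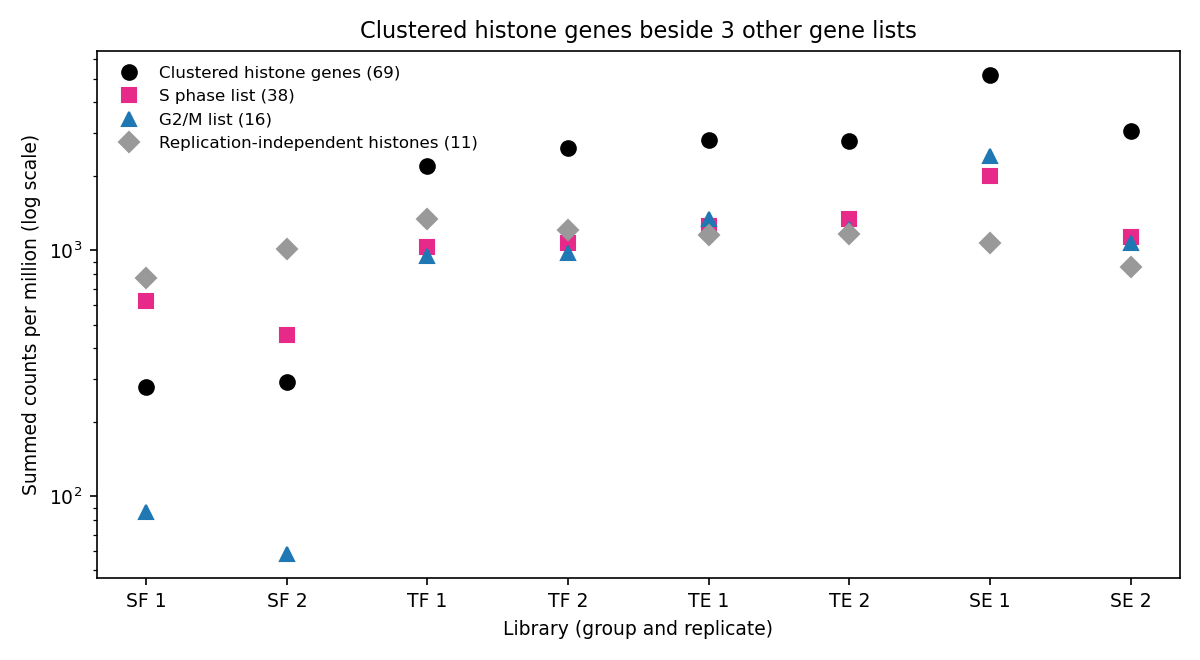
Each symbol is the summed level (CPM, log axis) of a gene list in 1 library: the clustered histone genes, the S phase and G2/M lists, and the replication-independent histones. The clustered histone genes, the S phase genes and the G2/M genes are lowest in SF 1 and SF 2. The sum of the replication-independent histones stays between 776 and 1347 CPM, although 8 of these 11 genes rose and 1 fell in SE against SF.

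The difference between the 2 culture effects was tested directly, as the change from TF to TE minus the change from SF to SE. It was called lower for 53 of the 63 histone genes (9.62% of all tested genes) and called higher for 1 (4.7% of all tested genes), with a median of -4.87 against -0.17 over all tested genes. Median-ratio scaling moved the median of all genes in this contrast by 0.14. All 5 H1 genes, 16 of 17 H2A, 14 of 17 H2B, 10 of 11 H3 and 8 of 13 H4 genes were called lower, and the value was negative, called or not, in 62 of the 63. Hist1h3b differed by -9.92 ± 0.65 and Hist1h1b by -9.76 ± 0.63 (adjusted p = 4.81e-05 in both), and neither was called in TE against TF. Hist1h3b had 1 count in each SF library, and the counting interval of its SE over SF ratio was 342 to 10230. The size of its difference is therefore less certain than the ± shows. Hist1h1e had the smallest called difference, -2.02 ± 0.30. Hist4h4, which rose in both cell types, differed by -1.09 ± 0.39 and was not called (adjusted p = 0.093). The one gene above 0 was Hist1h2al, at 4.30 ± 0.96 (adjusted p = 0.0166), with 3.002 without SF replicate 1 and 5.83 without SE replicate 1. The value of Hist1h1b was -9.11 without SE replicate 1. In 30 of the 54 calls the size moved by over 1.5 times when some library was left out. Of the 54 calls, 49 held in each fit without 1 library, and those lost in some were Hist1h2bj, Hist1h4i, Hist2h2ab, Hist2h2ac and Hist2h4, at adjusted p-values of up to 0.123.

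The 2 cultured populations were then compared with each other. In TE against SE, 11 of the 63 histone genes were lower (4.07% of all tested genes) and 2 were higher (3.15% of all tested genes), with a median log2 difference of -0.66 against 0.00 over all tested genes. Both TE libraries lay below both SE libraries for 33 of the 63 (26.1% of all tested genes). The number of lower genes rested on single libraries: it was 5 without TE replicate 2, 7 without SE replicate 1 and 23 without SE replicate 2, and DESeq2 gave 17. SE replicate 1 also had the higher sums of S phase genes (2011 CPM, against 1135 CPM in SE replicate 2) and G2/M genes (2419 and 1072 CPM) and the lower sum of terminal muscle differentiation genes (8298 and 17927 CPM), and the part of these in the histone levels was not tested.

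Most of the 11 lower genes were single members of H2A and H2B, and Hist2h2ac, Hist1h2bm, Hist1h2bj, Hist1h2bn, Hist1h2ab and Hist1h2bb, which the naming rule did not cover, were chosen after their values were seen. Hist2h2ac, an H2A gene of the Hist2 cluster, was at 3.53 and 4.95 CPM in TF and 6.46 and 2.08 CPM in TE, against 6.83 and 16.6 CPM in SF and 156 and 64.3 CPM in SE, and TE lay -4.69 ± 0.67 below SE (adjusted p = 0.00319). Hist1h2bm was at 1.71 and 0.727 CPM in TE and 40.5 and 21.7 CPM in SE (-4.66 ± 0.96), and Hist1h2bj at 3.08 and 1.61 CPM against 45.2 and 13.6 CPM (-3.64 ± 0.87). Hist1h2bn was at 7.21 and 9.50 CPM in TE and 111 and 45.7 CPM in SE (-3.23 ± 0.50). In each of these genes the TE and SE libraries did not overlap. Without SE replicate 1 the log2 differences were -3.90 for Hist2h2ac, -2.52 for Hist1h2bj, -2.44 for Hist1h2bn and -0.87 for Hist1h1b, without SE replicate 2 that of Hist1h2bj was -4.26, and without TE replicate 1 those of Hist2h2ac and Hist1h2bm were -5.71 and -5.39. Hist1h2ab (-2.78), Hist1h2bb (-2.31), Hist1h3b (-1.96), Hist1h2ac (-1.59), Hist1h1b (-1.52), Hist1h2bc (-1.22) and Hist1h1c (-0.78) made up the rest of the log2 differences. Of the 13 calls in both directions, 7 held in each of the 8 fits without 1 library: Hist1h2ac, Hist1h2bb, Hist1h2bn, Hist1h3b, Hist2h2ac, Hist1h2al and Hist4h4. Hist1h1c, the smallest, was lost in 5 of those 8, at an adjusted p of up to 0.332, when SE replicate 1 or any TE or TF library was left out. Hist1h1b and Hist1h2bj were lost without SE replicate 1, TE replicate 1 or TE replicate 2 (adjusted p up to 0.129 and 0.316), and Hist1h2bm without SE replicate 1 or TE replicate 2 (up to 0.0682). Hist1h2bc was lost without either TE library (up to 0.123) and Hist1h2ab without TE replicate 2 (0.0548).

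The 2 higher genes were Hist4h4 and Hist1h2al. Hist4h4, the lone H4 gene on chromosome 6 (chr6:136801553-136804415, minus strand), was at 46.8 and 56.3 CPM in TF and 105 and 84.8 CPM in TE, against 3.85 and 5.25 CPM in SF and 21.4 and 14.4 CPM in SE. TE exceeded SE by 2.40 ± 0.28 (adjusted p = 0.0011), and 85.7% of its 31-base words are its own. The 684 genes of chromosome 6 with a mean of at least 2 CPM had a median log2 difference between TE and SE of 0.51, against 0.00 over genes of all chromosomes at that level, and of -0.13 between TE and TF. The part of this chromosome-wide difference in the Hist4h4 result was not tested. Hist1h2al was at 44.4 and 34.9 CPM in TE against 1.89 and 0.400 CPM in SE (5.07 ± 0.77, adjusted p = 0.00437, with 6.61 without SE replicate 1 and 4.39 without SE replicate 2).

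Because the total differed between libraries, each gene was also given as a share of the counts of its own class, which removes the class total. Across the 4 teratoma-derived libraries Hist2h2ac held 0.255 to 0.781% of H2A counts, against 6.19 to 8.67% in SE. Within H2B, Hist1h2bm held 0.161 to 0.741% against 4.33 to 4.41%, and Hist1h2bn 1.33 to 2.10% against 9.10 to 12.1%. Hist1h2bj held 0.0975 to 0.647% of H2B counts in the teratoma-derived libraries and 2.70 to 4.92% in SE. In the other direction, Hist4h4 held 14.2 to 20.1% of H4 counts in the teratoma-derived libraries and 3.77 to 3.95% in SE, and Hist1h2al 3.70 to 5.37% of H2A counts against 0.0386 to 0.105%. Hist1h4m, an H4 gene with 8.33% of its 31-base words to itself, held 0.365 to 1.20% against 4.72 to 10.4%, although its difference in level did not pass the test (-4.09 ± 1.22, adjusted p = 0.0807). Hist1h4n holds 91.7% of the words of Hist1h4m. In SE replicates 1 and 2, Hist1h4m had 1256 and 301 counts and Hist1h4n 0 and 381. How reads were split between these 2 genes was not tested. By contrast, Hist1h1a, Hist1h2ak and Hist1h3f kept overlapping ranges, with SE over teratoma-derived ratios of 0.967, 0.926 and 0.938. In the SF libraries, Hist2h2ac held 6.24 and 13.4% of its class and Hist4h4 7.05 and 9.455%. Hist1h2bn held 0.352 and 0% there, and Hist1h2al 30.6 and 6.72%. These genes thus did not follow 1 pattern over the 4 groups. No test was run on these shares, and the genes were chosen after their values were seen.

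**Figure D5:**
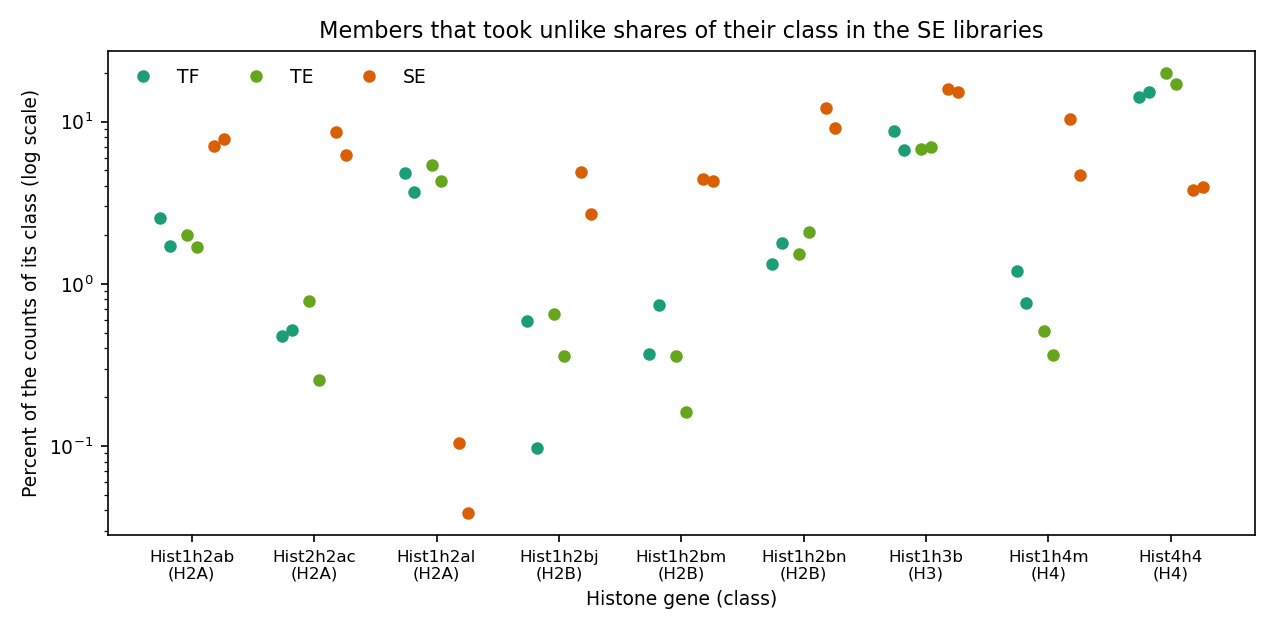
Each point is the percent of its class's counts (log axis) that a gene took in 1 TF, TE or SE library, for 9 genes chosen after their values were seen. The SF libraries are not drawn. The 2 SE points of Hist2h2ac, at 6.19 and 8.67%, and of Hist1h2bm, at 4.33 and 4.41%, lie above all 4 teratoma-derived points, and those of Hist4h4 and Hist1h2al lie below them.

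The promoter regions printed above place some of these differences beside a neighbour. Hist1h2bn and Hist1h2ak share 1 region between their starts, yet Hist1h2ak was at 61.02 and 64.4 CPM in TE and 137 and 81.2 CPM in SE (-0.80 ± 0.27, adjusted p = 0.118), against -3.23 for Hist1h2bn. Hist1h2bj was at -3.64 on the log2 scale, with its partner Hist1h2ag at -1.22 and not called. Hist2h2ac, at -4.69, is paired with Hist2h2be, at -2.16 and not called, which had 1.83 CPM or less in TE and SE. In the pair of Hist1h2ac and Hist1h2bc both genes were lower in TE, by 1.59 and 1.22. The difference between partners was not tested, and short reads of such alike genes can be assigned to the wrong copy.

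Sequence sharing was measured because it bounds what a count of 1 gene means. The median histone gene had 39.8% of its 31-base words to itself, 27 genes had at least 50% and 14 under 10%, and in 5 all words occurred elsewhere. Among the 23 tested genes with at least 50% unique words, 21 rose in SE against SF, 20 were higher in TF than SF, and 5 were lower and 1 higher in TE than SE. Among the 40 with less, 36 rose and 1 fell, 32 were higher, and 6 were lower and 1 higher. The medians of the SE against SF log2 fold changes were 3.76 and 5.68.

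Other genes of histone biology and of the cell cycle were read from lists. Of 11 histone genes listed as replication-independent, 8 rose and 1 fell in SE against SF (20.9 and 19.8% of all tested genes), and 6 were higher in TF than SF (15.1%), with medians of 1.34 and 1.40. The 8 include H2afx and Cenpa, and whether each listed gene is expressed evenly over the cell cycle was not tested. H1fx, a linker histone, rose by 3.53 in SE, and H2afz, the H2A.Z gene, rose in both cultures, by 0.88 in SE and 0.94 in TE. H3f3b, one of the H3.3 genes, fell by 1.01 in SE. Their sum lay between 776 and 1347 CPM over the 8 libraries. Cenpa, the centromeric H3, rose by 4.48 in SE and the macroH2A gene H2afy2 by 2.5.

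Of 17 genes for transcription and 3′ end processing of histone mRNA, 7 rose and 0 fell in SE against SF (20.9 and 19.8% of all tested genes), where 3 had an unadjusted p below 0.05 in the downward direction and DESeq2 called 4 lower. Npat, the coactivator of histone gene transcription, rose by 1.26, and the cleavage factors Cpsf2 and Cpsf3 by 1.55 and 1.61. Slbp, which binds the stem-loop, had a log2 fold change of -0.66 and was not called (adjusted p = 0.0725). In TE against TF, 4 of the 17 rose (9.86% of all tested genes), among them Cpsf2 by 1.18. Of 21 histone chaperone and import genes, 13 rose and 1 fell in SE against SF (20.9 and 19.8% of all tested genes) and 3 rose in TE against TF (9.86%).

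The cell cycle lists were read in the same way. Of 38 S phase genes, 29 rose and 1 fell in SE against SF (20.9 and 19.8% of all tested genes), 19 were higher in TF than SF (15.1%), 2 rose in TE against TF (9.86%), and in TE against SE 1 was higher and 1 lower (3.15 and 4.07%). Of 16 G2/M genes, 16, 15 and 2 were higher in the first 3 of these comparisons. In TE against SE, edgeR called 0 of the 16 lower or higher, DESeq2 likewise 0, and 3 were lower and 0 higher at an unadjusted p below 0.05. In the difference between the 2 culture effects, 14 of the 38 S phase genes and 15 of the 16 G2/M genes were called lower (9.62% of all tested genes). S phase genes summed to 625 and 454 CPM in SF, 1032 and 1072 CPM in TF, 1262 and 1344 CPM in TE and 2011 and 1135 CPM in SE. The part of cell cycle state in the histone levels was not tested.

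Genes known from germ cells stayed at or near 0. Hist1h1t, the testis linker histone, had at most 1.21 CPM, in SF replicate 2, and Hist1h2ba and Hist1h2aa, the divergent pair of testis H2B and H2A, at most 0.0841 and 0.0504 CPM, and these 3 were not tested. Hist3h2ba passed the filter with 2.36 and 0.0798 CPM in TF, 0.605 and 1.246 CPM in TE, 0.145 and 0 CPM in SF and 0.236 and 0.0572 CPM in SE, and was called in no comparison. Hist2h2aa2, with no count in any library, Hist2h3c1 and Hist3h2bb-ps made up the 6 that were not tested, and all words of the first 2 of these also occur in other transcripts.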

How the data were processed

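RNA of 8 libraries had been made into cDNA with a stranded SMARTer kit for very small inputs of total RNA, and the submitters' processing notes name CASAVA, kallisto 0.44.0 and the builds GRCm38 and mm10. The authors deposited estimated counts per gene symbol, pooled over transcripts, with no further normalization stated. kallisto divides reads between alike transcripts, which matters for these near-identical genes.

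Estimates were rounded to integers, low counts were removed with filterByExpr (17582 kept), scaled by TMM, and fitted over all 4 groups with edgeR 4.0.16 (R 4.3.3) by the quasi-likelihood test with Benjamini-Hochberg adjustment over all tested genes. Calls needed an adjusted p below 0.05 and a change of over 25% relative to the lower group. The method was tested on simulated data. Library totals of 11930881 to 21146554 counts set the depth. At 0 counts a floor of 3 counts per library was used. Where 1 to 3 counts were present, exact (Clopper-Pearson) 95% intervals were computed. Alternatives were median-ratio scaling, no filter, DESeq2 1.42.0, a replicate block, only the 2 groups compared, and each library left out. Class totals were not tested.

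Named genes were the 4 of highest mean level in each class, the largest and smallest call of each comparison, calls against the main direction, germ cell variants, the 10 smallest p-values of the difference between the culture effects, and the 3 lowest tested genes. The genes and lists were chosen with earlier results of these data known. With 2 libraries a group, p-values measure the spread between those libraries. Words of 31 bases were counted over GENCODE M21 transcripts. Promoters are from RefSeq.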

Additional observations from a re-analysis of the deposited data

Results flagged for a closer look

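One kind of result was set aside for a closer look: a change with culture that differed between the teratoma-derived and the satellite cells, by the edgeR test of the difference itself. Among the tested histone genes, 53 were called lower and 1 was called higher in the change from TF to TE minus the change from SF to SE. The values that follow are log2 differences of that contrast for the genes of the naming rule that were called, and the other called genes are left out.

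Among the linker histones, values were at -2.02 (Hist1h1e), -3.32 (Hist1h1c), -5.90 (Hist1h1d) and -9.76 (Hist1h1b). Among H2A genes they were at -2.26 (Hist2h2aa1), -5.66 (Hist1h2ap), -6.21 (Hist1h2ak), -7.17 (Hist1h2ai), -8.06 (Hist1h2ac) and -12.17 (Hist1h2ah), and Hist1h2al stood alone at 4.30. Among H2B genes they were at -2.63 (Hist1h2bc), -4.05 (Hist2h2bb), -4.31 (Hist1h2bq and Hist1h2br, 1 measurement) and -12.89 (Hist1h2bk). Among H3 genes they were at -4.04 (Hist2h3b), -5.12 (Hist2h3c2), -6.49 (Hist1h3d) and -9.92 (Hist1h3b). Among H4 genes they were at -2.03 (Hist1h4d), -2.30 (Hist2h4), -3.25 (Hist1h4h), -7.89 (Hist1h4b) and -11.62 (Hist1h4f). The sizes for Hist1h2ah, Hist1h2bk and Hist1h4f depend on the prior count, since neither SF library had a count of them. Those for Hist1h3b and Hist1h4b rest on 1 count in each SF library and are also uncertain. With 1 library left out, the value of Hist1h2ai ranged from -9.27 (without SF replicate 1) to -6.33 (without SF replicate 2) and that of Hist1h2al from 3.002 (without SF replicate 1) to 5.83 (without SE replicate 1). Without SF replicate 1, Hist1h2bq and Hist1h2br were at -5.08 and Hist2h3c2 at -5.90, and without SE replicate 1 Hist1h1b was at -9.11 and Hist1h2bk at -12.18. The call of Hist2h4 was lost without TE replicate 1 or TE replicate 2, at an adjusted p of up to 0.0581.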

How the results depend on the processing

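When 1 library at a time was removed, the histone genes that rose in TE against TF numbered 0 to 6 and those that fell 0 to 1, those that fell in SE against SF 1 to 2, those lower in TE than SE 5 to 23, those lower in TF than SF 0 to 1, and those called higher in the difference of the culture effects 1 to 2. The log2 ratio of the histone total ranged from 3.43 to 4.18 for SE over SF, -0.89 to -0.13 for TE over SE, 0.10 to 0.34 for TE over TF and 2.96 to 3.19 for TF over SF. Without the filter on low counts 7 rose and 2 fell in TE against TF, 23 were lower in TE than SE and 1 was lower in TF than SF. In a fit of only the 2 groups compared, 9 rose and 2 fell in TE against TF. DESeq2 found 17 lower in TE than SE and 1 lower in TF than SF. Scaled to totals without Rn45s, the log2 ratio of TE to TF was 0.40, and without Hist2h2aa1 that of TF to SF was 3.36. The cause of these shifts was not tested. The replicate numbers are not stated to pair libraries across groups. Same-numbered replicates did not deviate together (correlations of deviations from -0.02 to 0.07), which cannot show whether such libraries shared a source. With a replicate block 12 were lower in TE than SE in place of 11 and 4 rose in TE against TF as before. The calls of Hist1h1c in TE against SE and of Hist1h4i in the difference of the culture effects were lost with the block. The direction of these counts and family totals did not reverse, but the H2A total of TE over TF went from 0.965 to 1.10 when scaled to totals without Rn45s. Low counts in SF, shared sequence between copies and 2 libraries a group limit the values of single genes.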
